A study of Rattus norvegicus with 6 samples.

Results

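The genes described here are the 152 rows, of 24360 in the gene table, that the authors' deposited file types as known lncRNA (long non-coding RNA) genes. Long non-coding RNAs are transcripts that are processed much like messenger RNAs but are not known to be translated. Some act in the nucleus on chromatin or splicing, some carry small RNAs in their introns or exons, and for most of them in rat no role has been described. The members' row identifiers begin with ONT, and their names are entries of NONCODE, a database of non-coding RNAs, for 125 genes, of NONCODE and Ensembl for 25, and of Ensembl alone for 2. Apart from 7 Ensembl symbols found in a RefSeq table, neither the files nor RefSeq annotate a function, so most genes are given by identifier with no role. The study measured RNA in H9c2, a myoblast line derived from embryonic rat heart, labelled wild type. The 3 Rb2 samples received ginsenoside Rb2, which is a ginseng saponin, and the 3 Ctrl samples carry the treatment label NC. The protocol text is the same for all 6 and describes Rb2 for 48 h, 4 to 6 h without oxygen and glucose, and 12 h after their return; whether Ctrl samples went through the deprivation is not stated. The labels call the cells embryonic cardiomyocytes. Separate cultures are not mentioned for the replicates, and a p-value here reflects only how far these libraries scatter, possibly for technical reasons. In such bulk RNA, fewer cells expressing a gene and less of its RNA per cell cannot be told apart. The study's title concerns injury of heart muscle after loss and return of oxygen, and the question put to these genes was whether their RNA differed between Rb2 and Ctrl.

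Total counts were 5193077 to 5570308 in Rb2 and 5787587 to 8793390 in Ctrl, with Ctrl replicate 1 the deepest. A gene with no count could still lie below 3 counts, which is 0.52 to 0.552 CPM (reads of a gene per unit of library size, here scaled by TMM, which evens out differences in composition between libraries) in Rb2 and 0.364 to 0.542 CPM in Ctrl; such limits cover counting error only. Ctrl replicate 1 stood apart: 248 of 11551 genes tested were at least 2 times as high in it as in every other library, against at most 6 in any other library. Of 14 cardiac marker rows found, 3 (Actc1, Myl3 and Tbx5) had no count in any sample, and the summed level was 57 to 66.4 CPM in Rb2 and 58.7 to 79.1 CPM in Ctrl, most of it Tnnt2, the cardiac troponin T gene. The 9 skeletal muscle markers found, among them the myoblast transcription factor genes Myod1 and Myog, summed to 44.8 to 51.7 CPM in Rb2 and 39.3 to 49.7 CPM in Ctrl; Myf6 was at 0, and none of the 5 tested was called. Only 2 of 6 listed endothelial markers were found (Tek and Vwf), at or under 0.178 CPM in sum. The 4 leukocyte markers found, of 6 listed, summed to 0.52 to 2.58 CPM in Rb2 and 0.904 to 1.92 CPM in Ctrl, with Ptprc at 0. The 5 epithelial markers found, of 6 listed, summed to 33.9 to 39.9 CPM in Rb2 and 32.2 to 41.9 CPM in Ctrl, all from Krt8.

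The gene called with the smallest p, ONT.10796, carries the Ensembl symbol LOC102549726 and is 964 bases long in the deposited table. RefSeq types it as a lncRNA on chromosome 20 and lists 2 small nucleolar RNA genes, Snord48 and Snord52, within its span; such RNAs guide the chemical modification of ribosomal RNA and are cut from the introns of their host transcripts. Its neighbours in RefSeq are Hspa1b, a stress-induced chaperone gene, and Neu1, a lysosomal sialidase gene. Its promoter is printed because it is the called member whose start RefSeq annotates. The window below is chr20:3880958-3881257 of GRCr8, plus strand, from RefSeq (250 bases before the start and 50 from it), and the capitals mark the first 5 transcribed bases.
LOC102549726: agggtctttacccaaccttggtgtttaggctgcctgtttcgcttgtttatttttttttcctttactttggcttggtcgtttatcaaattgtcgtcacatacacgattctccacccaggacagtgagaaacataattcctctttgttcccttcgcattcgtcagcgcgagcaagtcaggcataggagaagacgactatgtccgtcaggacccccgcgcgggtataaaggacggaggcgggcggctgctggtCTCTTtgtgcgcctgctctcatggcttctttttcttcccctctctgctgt
The RefSeq transcript, matched by symbol alone, begins with a C and 4 pyrimidines, as 2.63% of 33469 RefSeq promoters of this length do. That is the form of a terminal oligopyrimidine start, known in mammals from the mRNAs of ribosomal proteins and from several snoRNA host genes. On either strand the window held no ACGTG, the core motif bound by hypoxia-inducible factors (found in 19.3% of these promoters), no CACGTG, the E-box, which contains the same core (6.42%), and no GAANNTTC, part of the heat shock element (8.59%). A match, or its lack, describes these letters only.

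Of the 152 genes, 118 passed the filter on low counts and were tested, and 3 fell in Rb2, none rose and 115 did not pass. These 3 are 2.54% of the tested members. Over all 11551 genes tested, 0.805% were called lower, 1.9% higher and 2.7% in either direction. At an unadjusted p under 0.05, 9 members were lower and 5 higher, against 8.17% and 11.8% of all genes. DESeq2 and limma-voom also called no member higher. The log2 fold change was below 0 in 61 of the 118 members, against 52% of all genes, and its median was -0.01, against -0.02 over all genes. In 10 members every Rb2 sample was above every Ctrl sample (8.47%, against 15% of all genes tested), and in 17 every Rb2 sample was below every Ctrl sample (14.4%, against 12.2%). Whether the authors' counting used strand is not given in the sources used here, so reads of a member and of a gene on the opposite strand cannot be told apart.

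ONT.10796 had 259, 257 and 241 CPM in Rb2 replicates 1 to 3, against 380.3, 384 and 356 CPM in Ctrl replicates 1 to 3. The groups did not overlap, and all 3 Rb2 samples lay close together. It fell to 252 ± 9.86 CPM in Rb2, against 374 ± 15.2 CPM in Ctrl (SD over 3 samples in each group). The log2 fold change was -0.57 (SE 0.08, edgeR adjusted p = 0.0192). The second called gene, ONT.2621 (NONRATG003507.2, 577 bases), had 252, 247 and 234 CPM in Rb2, against 353, 341 and 311 CPM in Ctrl. Its groups did not overlap, at 244 ± 9.44 CPM in Rb2 and 335 ± 21.6 CPM in Ctrl (log2 fold change -0.46, SE 0.09, edgeR adjusted p = 0.0365). The third, ONT.11732 (NONRATG015585.2, 2879 bases), had 78, 74.7 and 78 CPM in Rb2, against 102, 116 and 101 CPM in Ctrl, again with no overlap. It was at 76.9 ± 1.89 CPM in Rb2 and 106 ± 8.32 CPM in Ctrl (log2 fold change -0.47, SE 0.10, edgeR adjusted p = 0.048). None of the 3 was called when Ctrl replicate 2 or any 1 Rb2 replicate was left out. Calls fell over all genes in those settings too. Lower calls over all genes were 13 without Ctrl replicate 2, against 93 with all samples. They were 14, 3 and 10 without Rb2 replicate 1, 2 or 3. Higher calls were 2, 25, 0 and 1 in the same order, against 219. The 3 genes were called without Ctrl replicate 1 or 3, when lower calls over all genes were 291 and 211. Each had a log2 fold change below 0 in all 17 alternatives. With an offset for gene length, ONT.2621 moved to -0.27 (edgeR adjusted p = 0.0888), and ONT.11732 was not called with library size only (-0.35, edgeR adjusted p = 0.0818), limma-voom (adjusted p = 0.0611) or limma on the deposited CPM.

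A further 2 genes lay just outside the threshold of 0.05, both with every Rb2 sample below every Ctrl sample. ONT.8181 (NONRATG010865.2, 745 bases) had 143, 128 and 137 CPM in Rb2, against 214, 186 and 169 CPM in Ctrl (log2 fold change -0.48, SE 0.11, edgeR adjusted p = 0.0508). ONT.3187 (NONRATG004067.2, 1849 bases) had 33.1, 31.2 and 33.5 CPM in Rb2, against 49.9, 52.2 and 42.5 CPM in Ctrl (log2 fold change -0.56, SE 0.13, edgeR adjusted p = 0.0558). DESeq2 called both of them lower, at adjusted p = 0.0207 and 0.0296, and so counted 5 members lower, of 73 to which it gave an adjusted p, where edgeR counted 3. Over all genes with such a value DESeq2 called 95 of 7967 lower (1.19%). Both were also called by edgeR without Ctrl replicate 1 and without Ctrl replicate 3.

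**Figure D1:**
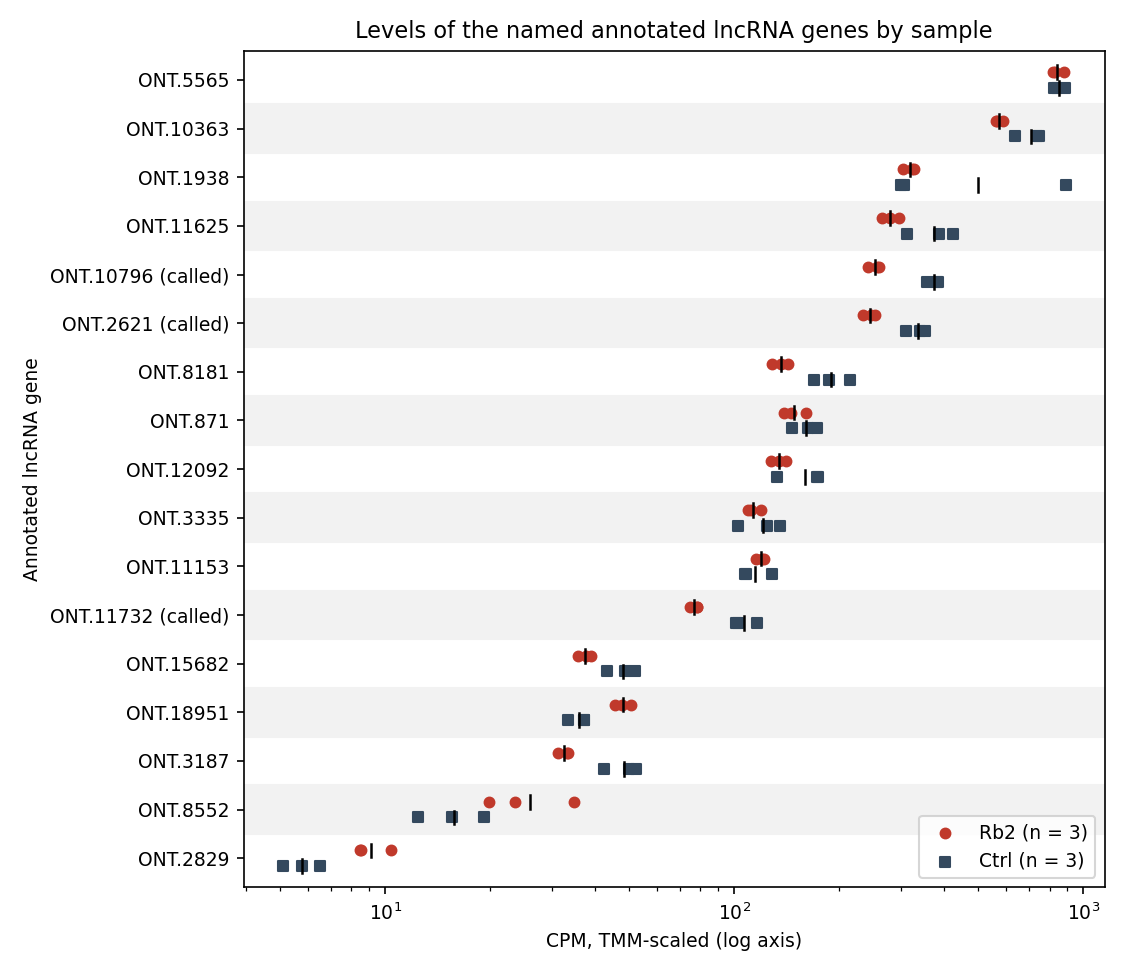
TMM-scaled CPM (log axis) of the 17 named annotated lncRNA genes, one row per gene, with Rb2 samples as red circles above Ctrl samples as dark squares and black ticks at the group means (n = 3 each). In the 3 called genes the Rb2 circles all lie left of the Ctrl squares, and in ONT.1938 a single Ctrl square sits apart at 889 CPM.

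The most abundant of these genes, by CPM, was ONT.5565 (NONRATG006790.2), the longest of all at 3343 bases. It had 881, 828 and 819 CPM in Rb2, against 884, 839 and 823 CPM in Ctrl. The ranges overlapped almost fully, with 843 ± 33.4 CPM in Rb2 and 849 ± 31.8 CPM in Ctrl (SD over 3 samples in each group; edgeR adjusted p = 0.959 for a log2 fold change of -0.01, SE 0.08). ONT.10363 (NONRATG013765.2, 556 bases) had 589.8, 566 and 562 CPM in Rb2, against 735, 748 and 638 CPM in Ctrl. Its groups did not overlap, but it missed the threshold (log2 fold change -0.30, SE 0.09, edgeR adjusted p = 0.0921). ONT.11625 (NONRATG015426.2, 1036 bases) was alike in that, with 295, 264 and 279 CPM in Rb2, against 424, 386 and 312 CPM in Ctrl (log2 fold change -0.42, SE 0.12, edgeR adjusted p = 0.0855).

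Another 4 genes completed the 12 most abundant, each with groups that overlapped and none called. ONT.871 (NONRATG001231.3, 1955 bases) was at 148 ± 11.2 CPM in Rb2 and 160.2 ± 13.3 CPM in Ctrl, and ONT.12092 (NONRATG015165.2, 1360 bases) at 134 ± 6.62 CPM in Rb2 and 159.7 ± 23.3 CPM in Ctrl (SD, n = 3 each). ONT.3335 (NONRATG004197.2), a model of 282 bases with 1 transcript, was at 113.5 ± 5.1 CPM in Rb2 and 120.5 ± 16.4 CPM in Ctrl. ONT.11153 (NONRATG014725.2, 1606 bases) was at 119 ± 3.38 CPM in Rb2 and 114 ± 11.8 CPM in Ctrl, and was the 1 gene over 100 CPM with a log2 fold change above 0 (0.06, SE 0.10). These 12 genes took 68.9% to 74.6% of all counts in the 152.

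Above 100 CPM, 10 of the 11 members had a log2 fold change below 0, with a median of -0.30; of all 1292 genes at that level, 64.4% were below 0 and the median was -0.07. With library size only, which put the median of all genes at 0.10, against -0.02 with TMM, 8 of the 11 were below 0 (median -0.19). On the deposited CPM, which is scaled likewise, 7 were. Without Ctrl replicate 1, 8 of the 11 were below 0 (median -0.17). Between 10 and 100 CPM, 24 of 43 tested members were below 0 (median -0.06, against 0.01 for all genes there), and up to 10 CPM 27 of 64 were (median 0.04, against -0.01). Members are not replicates of a condition, and these counts are given as a description.

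**Figure D2:**
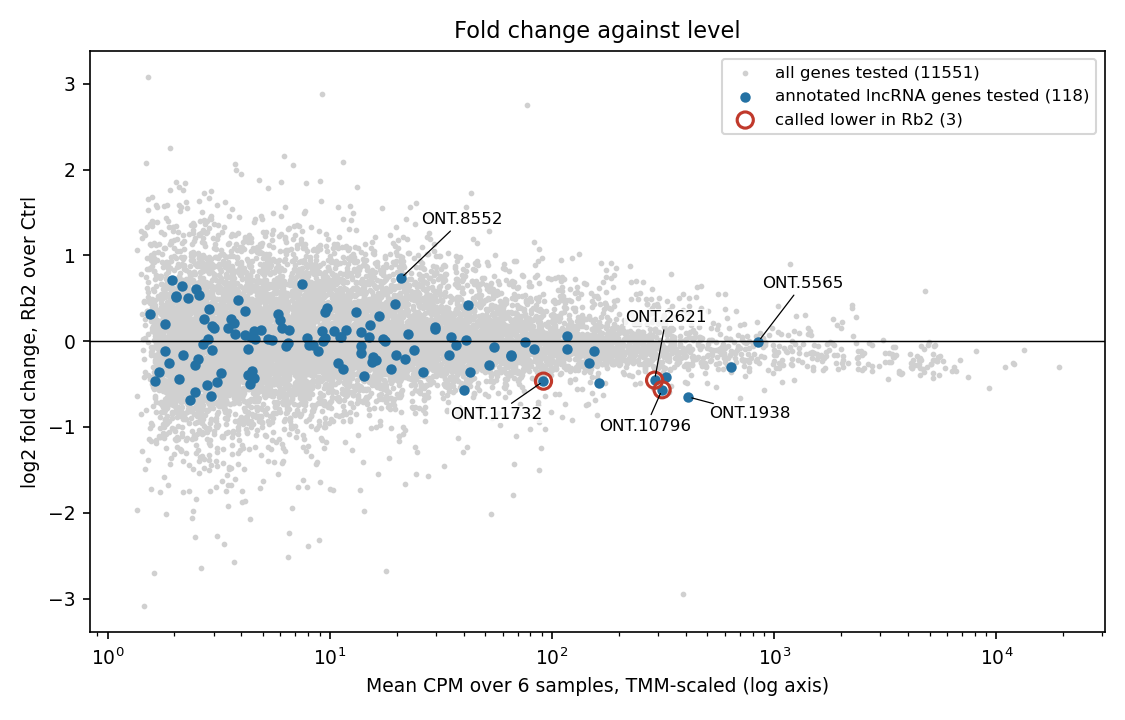
Log2 fold change of Rb2 over Ctrl against mean TMM-scaled CPM (log axis) for the 11551 genes tested (grey), the 118 annotated lncRNA genes among them (blue) and the 3 called lower (red rings). The lncRNA genes lie within the cloud of all genes, between -0.69 and 0.73, and 10 of the 11 above 100 CPM lie below 0.

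ONT.1938 (NONRATG002732.3, 2326 bases) was set by 1 library. It had 304, 328 and 324 CPM in Rb2, against 889, 306 and 301 CPM in Ctrl. Ctrl replicate 1 was 2.71 times the next highest library, and the other 5 libraries averaged 313 CPM. The fold change of Rb2 over Ctrl was -0.65 on the log2 scale (SE 0.47, edgeR adjusted p = 0.502) and 0.09 without Ctrl replicate 1 (edgeR adjusted p = 0.461). One other tested member was at least 2 times as high in Ctrl replicate 1 as in every other library, ONT.8773, at 2.18 times the next highest; it was singled out after its values were seen. ONT.8773 is typed as a lncRNA gene but carries the Ensembl symbol Rfwd3, which RefSeq lists as a protein-coding gene, a ubiquitin ligase of the DNA damage response. Its level was low, at 2.32 ± 0.21 CPM in Rb2 and 3.5 ± 1.92 CPM in Ctrl (SD, n = 3 each).

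Together the 152 genes took 0.493%, 0.477% and 0.483% of all counts in Rb2 replicates 1 to 3, against 0.569%, 0.513% and 0.486% in Ctrl replicates 1 to 3. The 95% Wilson interval was 0.472% to 0.483% for the lowest library (Rb2 replicate 2) and 0.564% to 0.574% for the highest (Ctrl replicate 1), which covers counting error only, as reads without molecular identifiers are not independent molecules. The Rb2 samples lay between 0.477% and 0.493%, and the lowest Ctrl sample lay within that range. The means were 0.484% ± 0.00804 in Rb2 and 0.523% ± 0.0424 in Ctrl (SD, n = 3 each; exact two-sided permutation p = 0.2, where 0.1 is the smallest possible). Without ONT.1938 the means were 0.451% ± 0.00969 in Rb2 and 0.4755% ± 0.0167 in Ctrl (exact permutation p = 0.2), and leaving out Ctrl replicate 1 as well, the difference, Rb2 minus Ctrl, was -0.019 percentage points. In another 2 settings the groups did not overlap and the exact permutation p was 0.1: without the most abundant member, ONT.5565, Rb2 samples were at most 0.4034% and Ctrl samples at least 0.4046%, and with counts per kilobase Rb2 samples were at most 0.5552% and Ctrl samples at least 0.5583%.

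**Figure D3:**
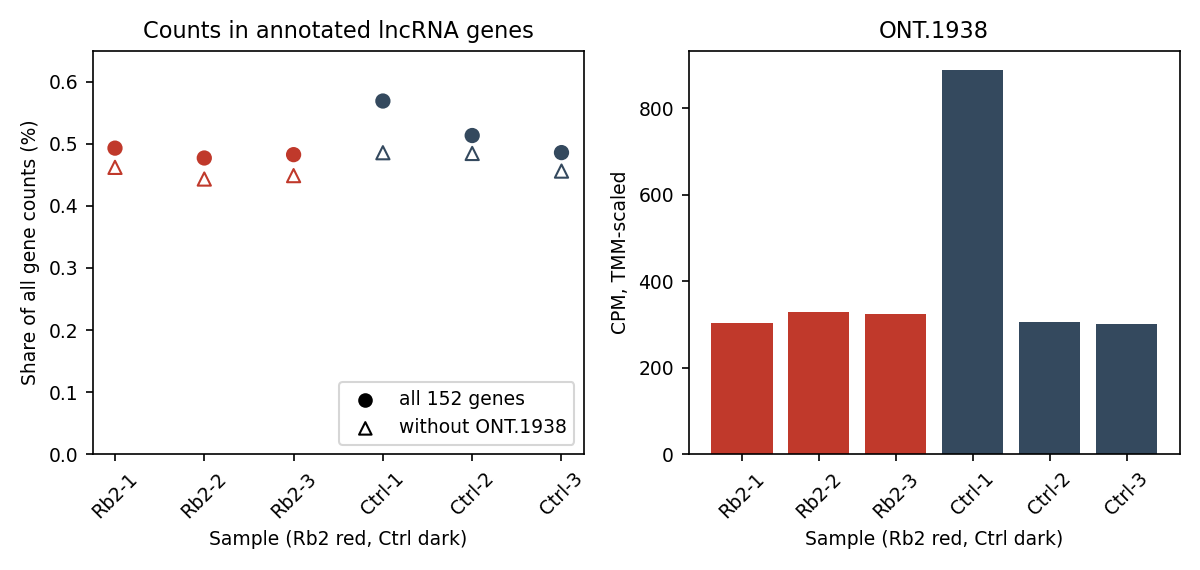
Left, share of all gene counts (%) taken by the 152 annotated lncRNA genes in each sample (filled circles) and by the 151 without ONT.1938 (open triangles); right, TMM-scaled CPM of ONT.1938 in each sample, Rb2 in red and Ctrl in dark bars. Ctrl replicate 1 is the highest in share, at 0.569%, and in ONT.1938, at 889 CPM, while the other libraries hold 301 to 328 CPM of that gene.

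Another 4 members without a call were named for their small p, a choice that favours groups that do not overlap. Theirs did not overlap. Over all genes tested, 15% had no overlap with Rb2 higher and 12.2% with Rb2 lower. ONT.18951 (1329 bases) had 50.5, 47.7 and 45.6 CPM in Rb2, against 33.4, 37.2 and 37 CPM in Ctrl (log2 fold change 0.42, SE 0.12, edgeR adjusted p = 0.0964), and it was the member that passed as higher with library size only (edgeR adjusted p = 0.0477). ONT.2829 (LOC100912181, 994 bases) had 8.54, 10.4 and 8.46 CPM in Rb2, against 5.1, 6.51 and 5.77 CPM in Ctrl (log2 fold change 0.66, SE 0.21, edgeR adjusted p = 0.121). ONT.8552 (NONRATG011419.2, 1871 bases) had the largest fold among tested members, with 34.7, 23.6 and 19.9 CPM in Rb2, against 15.5, 19.2 and 12.4 CPM in Ctrl. These are levels from its gene counts, and its transcript counts do not sum to them in every sample. Its lowest Rb2 sample lay just above its highest Ctrl sample (log2 fold change 0.73, SE 0.24, edgeR adjusted p = 0.129), and without Rb2 replicate 1 the log2 fold change was 0.47 (edgeR adjusted p = 0.359). In the other direction, ONT.15682 (NONRATG020861.2, 495 bases) was at 37.4 ± 1.57 CPM in Rb2 and 48 ± 4.49 CPM in Ctrl (SD, n = 3 each; log2 fold change -0.36, edgeR adjusted p = 0.149). Outside the 12 most abundant, 98 of 106 tested members had a fold within 1.5 in either direction, 5 were past it upward and 3 downward, none of them called.

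Most of the 152 genes were at or below 10 CPM. Of all 152, 11 had a mean over 100 CPM, 43 were between 10 and 100, 79 between 1 and 10 and 19 at or below 1 CPM. The 34 that did not pass the filter averaged at most 1.71 CPM, and 143 of the 152 had a count in all 6 samples. Between 149 and 151 members had a count in each Rb2 library, as in each Ctrl library. The median level was 4.5 CPM, against 1.6 CPM in the 637 lncRNA gene models outside the annotation and 3.42 CPM in known genes, and 77.6% of members were tested, against 48% of those models. Of the 306 tested models of that kind, 2 were called lower (0.654%) and 2 higher; whether the types differ was not tested.

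Length changed the order of abundance. Whether a read was a fragment or a whole molecule is unsettled, since the library kit is one for short reads but no source used here explains the ONT prefix of the gene models, and levels per length hold only for fragments. The median deposited gene length was 775.5 bases (range 252 to 3343), against 2483 bases in known genes. Per kilobase of gene length, as a level over all 6 samples, ONT.10363 led with 1151 CPM per kb, followed by ONT.2621 (502), ONT.3335 (415), ONT.10796 (325), ONT.11625 (315), ONT.5565 (253), ONT.8181 (218) and ONT.1938 (176). The gene length of the table is not the length of the RNA that carries the counts. In ONT.5565, which has 23 transcripts, a transcript of 444 bases held 90.2% of the counts, and with each transcript set against its own length this gene led, at 1880.0 CPM per kb, followed by ONT.10363 at 1710.0 CPM per kb. In 18 of the 152 genes the leading transcript was under 0.5 times the gene length. By length, 5 of 12 tested members up to 500 bases had a log2 fold change below 0, against 71.4% of all genes of that length, as had 28 of 55 over 500 and up to 1000 bases, against 69.3%, and 28 of 51 over 1000 bases, against 45.3%. All genes include unannotated models typed as new genes, with a median length of 218 bases. Of those tested, 1861 of 2701 were below 0. These percentages therefore mix gene types, and length was not separated from type.

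The transcript table holds 409 transcripts of these genes, of which 180 are typed as known lncRNA, 179 as lncRNA outside the annotation (unannotated lncRNA below) and 50 as new mRNA. Known lncRNA transcripts carried 60.9% to 66.4% of the members' counts in each sample, unannotated lncRNA transcripts 31.5% to 36.6% and those typed as new mRNA 1.88% to 2.48%. The type of the gene and that of its main transcript could differ: the leading transcript was of the known lncRNA type in 119 genes, unannotated lncRNA in 26 and new mRNA in 7, among them ONT.18951, where a new mRNA model of 1311 bases held 86.3%. In the called ONT.2621 and ONT.11732 the leading transcripts, of 454 and 930 bases, are of the unannotated lncRNA type.

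Of 184 transcripts of members tested, none was called with edgeR, as none was of all 16679 (0%); 18 had an unadjusted p under 0.05, where 13.8% of all transcripts did, and DESeq2 called 6 of the 73 to which it gave an adjusted p (1.67% of all 8257 such transcripts were called lower by DESeq2). Those 6, all with an edgeR log2 fold change below 0, were the leading transcripts of ONT.10363, ONT.10796, ONT.11732, ONT.2621, ONT.3187 and ONT.8181. The transcript of ONT.10796 with 769 bases, which held 99.6% of that gene's counts, had the smallest p among members (log2 fold change -0.58, edgeR adjusted p = 0.0842). Transcript usage could be tested with diffSpliceDGE in 37 members, with none called and none at an unadjusted p under 0.05; over 3361 genes 14 were called (0.417%).

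Transcript shares are given for 2 of the named genes, chosen after their values were seen. In ONT.871 the transcript of 877 bases held 60.9%, 53.8% and 59.7% of the counts in Rb2, against 71.4%, 72.2% and 69.5% in Ctrl. Its transcript of 1048 bases held 26.6% ± 0.692 in Rb2 and 20% ± 0.394 in Ctrl (SD, n = 3 each). In ONT.8552 a transcript of 469 bases held 24.7% ± 7.76 in Rb2 and 46.1% ± 6.34 in Ctrl (SD, n = 3 each). These shares are a description of genes picked for their values. An exact test of the share gave p = 0.1 for the transcripts of 877 and 469 bases. That is the smallest p possible with 3 samples per group, and it was 0.25 after adjustment over 10 such tests. The 10 tests are of transcripts of these 2 genes only, so the adjustment does not cover the choice of the genes. In the test over all genes, the diffSpliceDGE p was 0.474 for ONT.871 and 0.341 for ONT.8552 (adjusted p = 1 for both). ONT.8552 is 1 of 2 members whose transcript counts do not sum to the gene count in every sample, so its shares are of the transcript sum.

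**Figure D4:**
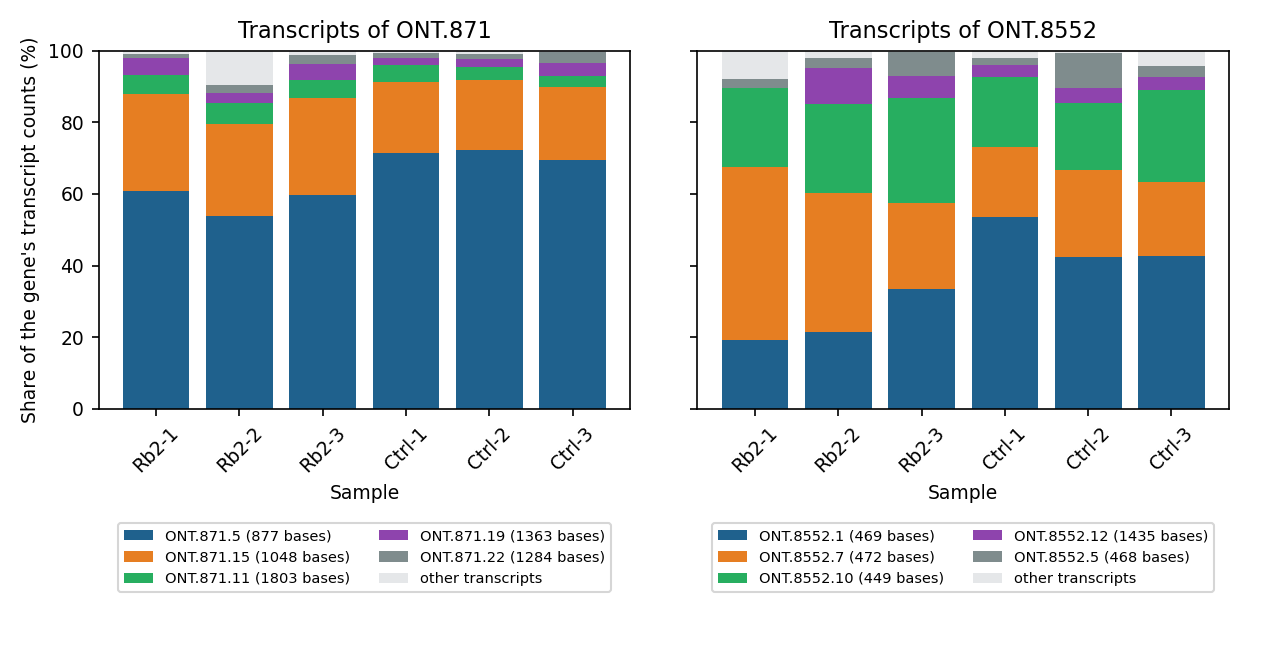
Share (%) of each tested transcript in the summed transcript counts of ONT.871 (left) and ONT.8552 (right), one bar per sample with Rb2 before Ctrl and lengths in the legend. The blue transcript of ONT.871 holds 53.8% to 60.9% in Rb2 and 69.5% to 72.2% in Ctrl.

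Of 27 members with an Ensembl name, 7 matched a RefSeq gene by symbol, 6 of them lncRNAs. LOC100910237 (ONT.1189, 571 bases) lies next to Rps12, a ribosomal protein gene, on the opposite strand in RefSeq. The lncRNA was at 7.96 ± 0.35 CPM in Rb2 and 7.79 ± 2.18 CPM in Ctrl, while Rps12 was at 3204 ± 163 CPM in Rb2 and 4074 ± 412 CPM in Ctrl (SD, n = 3 each; log2 fold change -0.35, edgeR adjusted p = 0.0705). LOC102550036 (ONT.1639, 368 bases) lies likewise beside Picalm, a clathrin assembly gene, and was at 9.6 ± 1.7 CPM in Rb2 and 9.35 ± 1.28 CPM in Ctrl; Picalm was at 3.32 ± 0.4 CPM in Rb2 and 3.57 ± 1.12 CPM in Ctrl. LOC100909912 (ONT.12269, 1358 bases), beside the nuclear receptor coactivator gene Ncoa3, was at 9.98 ± 0.53 CPM in Rb2 and 11.9 ± 1.23 CPM in Ctrl (log2 fold change -0.25, edgeR adjusted p = 0.468). LOC102547954 (ONT.3707, 549 bases), on the strand opposite to the DNA ligase gene Lig3, was at 1.72 ± 0.42 CPM in Rb2 and 1.91 ± 0.56 CPM in Ctrl. Neu1, beside the called LOC102549726, was at 15.9 ± 2.05 CPM in Rb2 and 16.1 ± 1.94 CPM in Ctrl (log2 fold change -0.02, edgeR adjusted p = 0.967). These genes were chosen after values were seen, and none of the neighbours tested was called (Ncoa3 was too low to test, and Hspa1b is not analysed here). Of 6 lists of well-known lncRNAs and small structured RNAs (snoRNA host genes, nuclear body and chromatin, imprinted, microRNA host, cytoplasmic, small structured), none had a member among the 152 by Ensembl symbol. The 125 members named by NONCODE alone have no such symbol and could not match. LOC102549726 has an Ensembl symbol and spans Snord48 and Snord52 in RefSeq, yet it is not on the lists under that symbol. The lack of a match therefore cannot show that genes of these kinds are absent from the 152. Neat1, Malat1, H19 and the like are not analysed here.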

How the data were processed

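RNA of 6 H9c2 samples (3 Rb2, 3 Ctrl) was measured by sequencing of libraries from an mRNA kit, per the labels' protocols. The authors deposited whole-number counts per gene and per transcript with lengths, and CPM (CPM equals the count over the column total). Lengths of genes and transcripts were used as given, in bases, per the file headers. The submitters' processing notes list HISAT2, DESeq2 and mm10 (a mouse build) without saying what each was for; the gene names are of rat, so no coordinates of the files are given. Counter and annotation: not given in the sources used here. Each table has 18 further per-sample columns, which were not used.

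Counts were fitted over all genes with edgeR 4.0.16 in R 4.3.3 (TMM, filterByExpr, robust quasi-likelihood test, 1 group term), and an adjusted p (Benjamini-Hochberg) under 0.05 was a call. The standard error is the log2 fold change over the root of F. Transcripts were fitted likewise, with diffSpliceDGE for usage. Alternatives used limma 3.58.1 and DESeq2 1.42.0. Fits were tested on simulated data. Genes and lists were chosen with earlier results of these data known. Named are the called members, the 12 highest in CPM, the 8 highest per kb and the 8 uncalled with the smallest p, 17 in all.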

Additional observations from a re-analysis of the deposited data

How the results depend on the processing

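Of 289 refits of the 17 named genes (17 alternatives each), 238 kept direction and side of the threshold, 20 lost a call, 16 gained one and 15 changed sign; the cause was not tested. The 3 members called lower were 5 with DESeq2 and 0 with the replicate block, and 0 to 7 when 1 sample was left out; members called higher were 1 with library size only and with limma on the deposited CPM (pseudocount 1 or 0.1), and 0 to 1 with 1 sample left out. ONT.10796 was past the threshold in 12 of 17 alternatives (log2 fold change -0.62 to -0.45), ONT.2621 in 11 (-0.50 to -0.27) and ONT.11732 in 8 (-0.60 to -0.35). Over all genes, higher calls were 135 with upper-quartile factors, 463 with library size only, 386 with no filter, 122 with limma-voom, 469 and 385 on the deposited CPM, 135 with the length offset and 12 with the replicate block; lower calls were 150 with no filter, 55 with limma-voom and 21 with the block. With 1 sample left out, 0 to 605 genes were higher and 3 to 291 lower. DESeq2 called 6 transcripts of members. With library size only, the median over all genes was 0.10, against -0.02 with TMM. Sign changes were all in genes not called: ONT.5565 (0.103 with library size only and on the deposited CPM, 0.0119 with no filter, and -0.04305 to 0.03754 with 1 sample left out), ONT.3335 (0.02957 with library size only, 0.03505 and 0.03537 on the deposited CPM, 0.146 with the length offset, and -0.1751 to 0.007001 with 1 sample left out), ONT.871 (0.001245 and 0.001275 on the deposited CPM) and ONT.1938 (-0.901 to 0.0865 with 1 sample left out). The difference in share of counts, Rb2 minus Ctrl, stayed below 0 in every alternative run (-0.0569 to -0.0153 percentage points with 1 sample left out). The replicate numbers were taken to name samples only. Deviations of same-numbered samples correlated at -0.0673, -0.0605 and -0.00674, and no sample correlated best with its own number. With 3 samples per group, these values cannot show whether same-numbered samples share a batch. Members with few counts limit what can be seen: 34 of 152 could not be tested at this depth.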
